A study of Mus musculus with 19 samples.

Results

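Gene expression in mouse prefrontal cortex with and without bacterial lipopolysaccharide (LPS) was compared in animals that all received sedanolide, setting 5 co-treated libraries against 5 sedanolide libraries out of 19 in the series. The members were chosen by their labels alone, as the libraries of both groups given sedanolide, so that LPS injection was the only labelled difference. All mice were wild type and the tissue was medial prefrontal cortex, sampled in bulk as polyadenylated RNA. Sedanolide mice received the phthalide sedanolide, a constituent of celery seed oil, at 20 mg/kg by gavage for 8 days together with saline injections. Co-treated mice received the same gavage and intraperitoneal LPS at 1 mg/kg for 5 days, with gavage beginning 3 days before the first injection. The remaining 9 libraries, from saline controls (n = 4) and mice given LPS without sedanolide (n = 5), entered the same model and serve here as the companion comparison of LPS without sedanolide. Strain, sex and age were not given in the sources used here, and separate animals are not named as the source of the replicates, so p-values reflect only the spread between these samples, which may be technical. The series title names the complement fragment C3a, its receptor and microglial glycolysis as its subjects.

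LPS is a cell wall component of Gram-negative bacteria that is bound by LPS-binding protein and CD14 and sensed by the receptor TLR4 with its partner MD-2. Signalling through the adaptor MyD88 activates NF-kB and cytokine genes, and signalling through TRIF induces type I interferon and, through it, interferon-stimulated genes. After systemic injection, endothelial cells, perivascular macrophages and microglia respond first, astrocytes take on a reactive state, and leukocytes can adhere to or enter brain vessels. The complement protein C3 is cleaved to C3a, which acts on the receptor C3aR of microglia and other myeloid cells.

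The libraries held 21.26 to 24.22 M counts (M = mega) with sedanolide and 21.80 to 23.78 M with both agents, and 23844 to 24767 genes had at least 1 count. Markers of excitatory cortical neurons were present at similar summed levels, 5428 to 8339 counts per M of the scaled library total (CPM) in sedanolide and 6537 to 7325 CPM in co-treated libraries, and none of the 10 was called by edgeR (0 at an unadjusted p below 0.05, 0 by DESeq2). Projection neurons of the olfactory bulb, which borders the dissected region, were also represented. Cdhr1, a cadherin gene of these neurons, stood at 222 CPM in sedanolide replicate 3 and 80.4 CPM in sedanolide replicate 4, against 3.79, 5.13 and 9.17 CPM in the other sedanolide libraries and 2.29 to 7.41 CPM in co-treated libraries. The same 2 sedanolide libraries had the highest levels of the myelin gene Mbp, at 3480 and 2150 CPM, and the summed level of 10 oligodendrocyte genes spanned 2083 to 6844 CPM with sedanolide and 2094 to 2934 CPM with both agents. Results that these libraries touch are therefore also given without them, in the 12 libraries of the series with Cdhr1 under 20 CPM (3 sedanolide and 5 co-treated), called bulb-poor libraries, as opposed to the bulb-rich ones. Of 5 bulb markers none was called (median log2 change -4.12, 5 at an unadjusted p below 0.05, 4 called by DESeq2).

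Rises outnumbered falls. Between co-treated and sedanolide libraries 990 of 17757 genes were called (5.58%), of which 904 were higher (5.09%) and 86 lower (0.484%) in co-treated libraries, by edgeR's quasi-likelihood test at an adjusted p below 0.05. More than 2-fold differences were found for 419 of the genes called higher and 11 of those called lower. The median log2 change over all genes was -0.016. Every co-treated library lay above every sedanolide library for 958 genes (5.4%) and below for 323 (1.82%). In bulb-poor libraries 823 genes were called higher and 48 lower, and offsets for transcript length and GC content gave 889 higher and 223 lower, which moved the share of calls that were higher from 91.3% to 79.9%. Of 90 named genes called higher, 87 were called in all 19 refits without 1 library each, the exceptions being Egr2, Slc16a3 and Nfkbia, and 86 were called in bulb-poor libraries. The 86 genes called lower became 43, 35 and 43 without sedanolide replicates 3, 4 and 5, 36 to 47 without co-treated replicates 1 to 4, and 140 without co-treated replicate 5. In bulk tissue, a larger number of cells of a type and more RNA per cell cannot be told apart.

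The promoters of 6 genes that carry the patterns described below are shown, because each holds a letter pattern bound by a factor of these pathways. The windows are the 250 bases before a RefSeq start on GRCm38.p6, written in the direction of the gene, and capitals mark the matches. Saa3, Gbp2 and Cybb hold the interferon-response pattern GAAANNGAAA, Tlr2 holds the consensus of NF-kB, B2m holds both, and Egr2 holds a CArG box, the site of serum response factor, in 4 of its 5 windows, of which 1 is shown.
Saa3, chr7:46715677-46715926, minus strand: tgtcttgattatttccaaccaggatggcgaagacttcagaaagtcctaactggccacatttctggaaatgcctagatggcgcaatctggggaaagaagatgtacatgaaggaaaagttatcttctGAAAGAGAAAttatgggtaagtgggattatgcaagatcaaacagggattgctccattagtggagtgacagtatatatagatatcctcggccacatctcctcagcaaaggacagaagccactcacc
Tlr2, chr3:83841609-83841858, minus strand: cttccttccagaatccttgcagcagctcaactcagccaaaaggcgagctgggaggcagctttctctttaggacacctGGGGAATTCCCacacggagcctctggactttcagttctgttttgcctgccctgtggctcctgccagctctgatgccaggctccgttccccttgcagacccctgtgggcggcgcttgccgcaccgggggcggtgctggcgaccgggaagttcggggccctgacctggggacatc
B2m, chr2:122147437-122147686, plus strand: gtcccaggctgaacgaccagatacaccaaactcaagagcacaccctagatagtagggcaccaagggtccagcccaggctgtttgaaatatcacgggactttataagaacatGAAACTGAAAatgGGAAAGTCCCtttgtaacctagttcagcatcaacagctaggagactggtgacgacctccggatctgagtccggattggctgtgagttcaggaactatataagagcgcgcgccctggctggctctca
Gbp2, chr3:142620413-142620662, plus strand: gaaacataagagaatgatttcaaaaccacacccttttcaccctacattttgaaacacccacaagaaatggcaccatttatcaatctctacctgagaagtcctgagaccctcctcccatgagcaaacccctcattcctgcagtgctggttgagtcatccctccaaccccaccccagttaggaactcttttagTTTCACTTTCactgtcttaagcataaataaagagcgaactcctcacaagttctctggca
Cybb, chrX:9469325-9469574, minus strand: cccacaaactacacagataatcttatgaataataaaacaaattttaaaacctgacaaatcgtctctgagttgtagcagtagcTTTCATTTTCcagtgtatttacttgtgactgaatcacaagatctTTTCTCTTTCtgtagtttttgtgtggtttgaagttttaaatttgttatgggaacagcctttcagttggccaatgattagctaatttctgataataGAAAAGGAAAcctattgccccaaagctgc
Egr2, chr10:67537316-67537565, plus strand: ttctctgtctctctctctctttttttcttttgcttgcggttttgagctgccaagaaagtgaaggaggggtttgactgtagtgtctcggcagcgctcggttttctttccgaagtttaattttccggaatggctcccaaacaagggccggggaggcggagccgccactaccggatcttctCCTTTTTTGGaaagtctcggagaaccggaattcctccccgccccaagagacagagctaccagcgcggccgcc
The match begins 125 bases before the start in Saa3, 173 in Tlr2, 59 in Gbp2 and 72 in Egr2. In B2m the interferon pattern begins 139 bases and the NF-kB consensus 126 bases before the start, and in Cybb the interferon pattern occurs 3 times, beginning 168, 124 and 29 bases before it. Both strands were searched. Of 16091 windows of the 12598 tested genes that the RefSeq table held by symbol, 2.62% contained GAAANNGAAA, against 7.25% of 841 windows of genes called higher and 2.99% of 67 windows of genes called lower. The NF-kB consensus was in 8.92% of all windows, 11.9% of those of genes called higher and 17.9% of those of genes called lower, the CArG box in 1.21%, 1.31% and 0.0%, and the cyclic AMP response element TGACGTCA in 2.33%, 0.595% and 4.48%. These shares describe letters in the windows, and the 6 genes shown were chosen after their values were seen.

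The acute-phase gene Saa3, a serum amyloid A, had the largest fitted change. It stood at 140, 168, 148, 123 and 118 CPM in the 5 co-treated libraries, whereas the sedanolide libraries held 2 counts in all, against 15533 in the co-treated group. The ratio of the summed counts was 7690 (95% interval 2130 to 63500, counting error only), and the fitted log2 change was 12.52 (SE 0.36, adjusted p = 3.71e-14). Lcn2, encoding the siderophore-binding protein lipocalin 2, was measured at 0.411, 0.244, 0.8, 0.713 and 0.913 CPM with sedanolide and at 6.18, 8.57, 6.53, 6.36 and 6.33 CPM with both agents. The groups did not overlap and Lcn2 rose 10.9-fold (3.44, SE 0.36). Serpina3n, a secreted protease inhibitor, rose by 1.96 (SE 0.27) and Il6ra, a receptor subunit for interleukin-6, by 0.73 (SE 0.13). Of 19 acute-phase and interleukin-6 pathway genes tested 6 rose and none fell (median 0.73, against -0.016 for all genes). In the coordinates of the deposited table, whose build is not given in the sources used here, Saa3 (ENSMUSG00000040026) spans 46361422 to 46365124 of chromosome 7 and Lcn2 (ENSMUSG00000026822) spans 32274645 to 32278264 of chromosome 2, both on the minus strand.

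Most listed genes that sense and disarm LPS rose in co-treated cortex. Of 18 genes of LPS recognition and detoxification 12 rose and none fell, with a median of 0.83. Tlr2, a receptor for bacterial lipoproteins, stood at 0.686, 1.08, 1.33, 1.26 and 2.46 CPM with sedanolide and at 9.94, 8.88, 7.71, 9.46 and 6.5 CPM with both agents. It rose 6.21-fold (2.63, SE 0.23, adjusted p = 2.31e-07), and the lowest co-treated library was above the highest sedanolide library. Aoah, whose product removes acyl chains from LPS, rose by 4.46 (SE 0.34), with means of 0.18 CPM ± 0.0699 and 4.09 CPM ± 0.613 (SD, n = 5 each). Cd14, the co-receptor that hands LPS to TLR4, rose 3.97-fold (1.99, SE 0.13), and Cd180, a TLR4 relative of B cells and myeloid cells, rose 3.91-fold (1.97, SE 0.17). Tlr4 itself, named after its values were seen, was at 0.61 (SE 0.26, adjusted p = 0.224) and did not pass the test. In bulb-poor libraries 8 of the 18 were called.

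Some complement genes rose, the receptor for C3a among them. C3 was measured at 0.0914, 0.44, 0.4, 0.503 and 0.228 CPM with sedanolide and at 4.86, 5.36, 5.4, 4.73 and 7.06 CPM with both agents. No library of one group reached the other, and C3 rose 16.2-fold (4.02, SE 0.32, adjusted p = 7.15e-08). C3ar1, encoding the C3a receptor, stood at 3.02, 2.59, 2.8, 2.81 and 4.47 CPM with sedanolide and at 15.7, 13.1, 14.3, 16.5 and 11 CPM with both agents. It rose 4.5-fold (2.17, SE 0.19, adjusted p = 1.99e-07), again without overlap. The initiating subunits C1qa and C1qc rose by 1.55 (SE 0.12) and 1.48 (SE 0.11), and Itgax, the alpha chain of complement receptor CR4, rose by 3.67 (SE 0.22). C5ar1, the receptor for the other anaphylatoxin C5a, was at 0.82 (SE 0.24, adjusted p = 0.0558), and sedanolide replicate 5, at 2.1 CPM, lay within the co-treated range of 1.58 to 2.52 CPM. In the complement list 11 of 23 genes rose and none fell (median 0.82). In the deposited coordinates C3 (ENSMUSG00000024164) spans 57510970 to 57535136 of chromosome 17 and C3ar1 (ENSMUSG00000040552) spans 122824097 to 122833120 of chromosome 6.

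**Figure D1:**
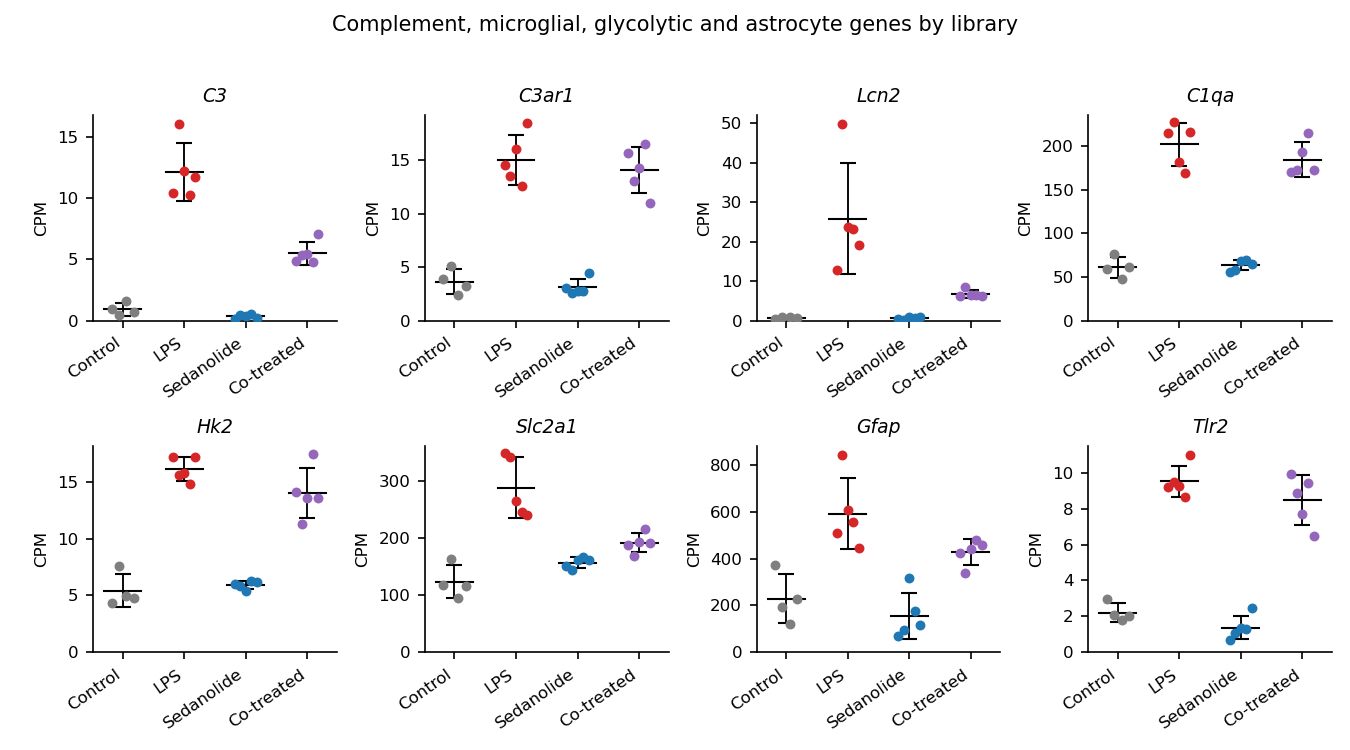
CPM per library (vertical axes, linear from 0) of 8 genes in the control (n = 4), LPS, sedanolide and co-treated (n = 5 each) groups; points are libraries, long lines are means and error bars are the SD. All 5 co-treated points lie above all 5 sedanolide points in every panel, from 4.73 to 7.06 CPM against 0.0914 to 0.503 CPM for C3, while for Slc2a1 they lie at 169 to 216 CPM against 144 to 167 CPM.

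Microglial genes rose in both of their lists. Of 29 genes of activated microglia and phagocytes 24 rose and none fell (median 1.52). Cd68, a lysosomal membrane protein of phagocytes, was at 7.77, 8.21, 10.1, 9.85 and 11.9 CPM with sedanolide and at 28.7, 26.3, 25.3, 29.9 and 24.3 CPM with both agents, a 2.81-fold rise without overlap (1.49, SE 0.12). The lysozyme gene Lyz2 rose by 2.85 (SE 0.21), the surface glycoprotein gene Cd52 by 3.39 (SE 0.24), the Fc receptor gene Fcgr4 by 3.31 (SE 0.30) and the lysosomal protease gene Ctsd by 1.08 (SE 0.08). Of 18 genes of homeostatic microglia 11 rose and none fell (median 0.61). Trem2, a lipid-sensing receptor, and its signalling partner Tyrobp rose by 1.65 (SE 0.14) and 1.62 (SE 0.17), Aif1, which encodes the marker Iba1, by 1.71 (SE 0.25), and Csf1r, the receptor that maintains microglia, by 0.95 (SE 0.13). Tmem119, a marker of resident microglia, stood at 37.3, 39.3, 42.9, 43.8 and 42.3 CPM with sedanolide and at 59.2, 48.1, 62.2, 69.3 and 61.5 CPM with both agents, a rise of 0.55 (SE 0.12). The purinergic receptor gene P2ry12 was at 0.57 (SE 0.18, adjusted p = 0.0704), and its groups overlapped because co-treated replicate 5, at 58.9 CPM, lay below sedanolide replicate 5, at 62.2 CPM. All 6 subunit genes of the phagocyte NADPH oxidase, the enzyme that makes superoxide, rose (median 1.55), among them Cybb by 2.46 (SE 0.28), Cyba by 1.57 (SE 0.13) and Ncf1 by 1.48 (SE 0.11).

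Most of the cytokine, inflammasome and chemokine genes that could be tested rose. Il1b, encoding interleukin-1 beta, was at 0.411, 0.244, 0.133, 0.126 and 0.228 CPM with sedanolide and at 2.06, 2.07, 1.6, 1.15 and 1.12 CPM with both agents, a 6.89-fold rise (2.79, SE 0.37, adjusted p = 3.96e-05). Pycard, the inflammasome adaptor, rose by 1.47 (SE 0.16), Il10ra, a receptor for interleukin-10, by 1.25 (SE 0.14) and Tnfrsf1b, a receptor for tumour necrosis factor, by 1.15 (SE 0.15). Of 26 genes of this list 16 rose and none fell (median 0.69). Il1rn, with 1 count over the sedanolide libraries and 34 over the co-treated ones, could hardly fall. Tnf held 0 to 8 counts per library and was not tested. Of 20 chemokine ligand genes listed 12 were tested, of which 8 rose and none fell (median 2.08). Ccl2, Ccl3, Ccl4, Ccl7, Ccl11, Cxcl2, Cxcl11 and Cxcl13 were not tested. Cxcl1, with 1 count over the sedanolide libraries, could hardly fall. Ccl5, a chemokine for T cells and monocytes, was at 0.0457, 0.147, 0.0444, 0.126 and 0.0913 CPM with sedanolide and at 28.5, 21, 29.4, 34 and 15.2 CPM with both agents, a rise of 8.06 (SE 0.48). Ccl6, Ccl9 and Cxcl5 rose by 1.30 (SE 0.15), 1.43 (SE 0.17) and 2.06 (SE 0.25).

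Most of the listed interferon-response and MHC class I genes rose. Most class II genes had positive changes, but only 3 of 10 passed the test. All 36 interferon-response genes had a positive change, and 22 of them rose (median 0.85). Irf8, a transcription factor of myeloid cells, stood at 5.99, 7.33, 7.86, 7.67 and 6.94 CPM with sedanolide and at 20.1, 17.3, 21.2, 24.9 and 20.6 CPM with both agents, a 2.91-fold rise (1.54, SE 0.11). The guanylate-binding protein genes Gbp2 and Gbp5 rose by 1.21 (SE 0.13) and 1.13 (SE 0.11), Bst2, which encodes the antiviral protein tetherin, 2.82-fold (SE 0.20 on the log2 scale), and the DNA sensor gene Ifi204 by 3.45 (SE 0.43). Of 15 genes of MHC class I presentation 12 rose and none fell (median 1.48). B2m, the common light chain of class I molecules, was at 97.3, 106, 89.6, 86.6 and 85.8 CPM with sedanolide and at 358, 316, 340, 411 and 223 CPM with both agents. The groups were far apart, with a rise of 1.83 (SE 0.14). The heavy chain genes H2-D1 and H2-K1 rose by 2.32 (SE 0.16) and 2.07 (SE 0.14), and the immunoproteasome gene Psmb8 by 1.73 (SE 0.18). Class I genes have close copies, so reads could be split between them. Of 10 genes of class II presentation 3 rose (median 0.92, 9 positive), beside 5.09% of all genes tested. They were the protease gene Ctss (1.60, SE 0.14), the costimulatory gene Cd86 (1.49, SE 0.18) and H2-DMb1 (1.15, SE 0.21). All co-treated libraries lay above all sedanolide libraries for 9 of the 10, beside 5.4% of all genes. In bulb-poor libraries 5 of the 10 were called.

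Some markers of circulating leukocytes also rose, at low levels. The summed level of the neutrophil list spanned 16.1 to 20.9 CPM with sedanolide and 51.9 to 68.1 CPM with both agents, and 110 to 158 CPM in mice given LPS without sedanolide (co-treated against sedanolide, exact permutation test, two-sided p = 0.00794, the smallest that this design allows, 0.143 after adjustment over 18 measures). Of 17 neutrophil genes tested 11 rose and none fell (median 2.05), though Trem1, with 1 count over the sedanolide libraries, could hardly fall. S100a8, a calprotectin subunit of neutrophils and monocytes, was at 0.183, 0.0977, 0.222, 0.293 and 0.639 CPM with sedanolide and at 3.39, 8.62, 5.64, 3.05 and 1.81 CPM with both agents, a rise of 3.94 (SE 0.48), and its partner S100a9 rose by 3.17 (SE 0.45). Csf3r, the receptor for granulocyte colony-stimulating factor, rose by 1.69 (SE 0.19). The secondary granule genes Ngp and Camp rose by 2.43 (SE 0.62) and 2.70 (SE 0.74), named after their values were seen. Camp held only 5 counts with sedanolide and 36 with both agents, and its groups overlapped (adjusted p = 0.0357). Ly6g, a defining surface marker of mouse neutrophils, had no count in sedanolide libraries and 0 to 2 counts in co-treated libraries and was not tested. Lcn2 is a member of this list and of the reactive astrocyte list. In bulb-poor libraries 7 of the 17 were called.

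Of 16 genes of lymphocytes and cytotoxic cells tested 10 rose and none fell (median 2.51, also with Prf1 at its lower bound). Members with almost no sedanolide counts, such as Cd8a (2), Ncr1 (3), Nkg7 and Prf1, passed the expression filter through other groups and could hardly fall. The absence of falls and the median are therefore partly set by the filter. The T cell genes Cd3e, Cd3d, Cd3g and Cd2 were not tested, and Cd4 was not called (0.75, SE 0.36, adjusted p = 0.322). Gzma, a granule protease of cytotoxic cells, was at 0, 0.0489, 0.0888, 0.0838 and 0 CPM with sedanolide and at 2.7, 2.55, 2.68, 2.43 and 1.38 CPM with both agents. It was at or near 0 in all sedanolide libraries and rose by 5.53 (SE 0.42, and by 6.79 in bulb-poor libraries). The granule gene Nkg7 held 1 count with sedanolide and 79 with both agents, a ratio of 78.2 (95% interval 13.6 to 3130, counting error only). Prf1, encoding perforin and named after its values were seen, had no count with sedanolide and 42 with both agents, at least 13.9-fold higher against a floor of 3 counts over the group. Cd79b, part of the B cell receptor, rose by 2.28 (SE 0.28), and Ly9, a surface receptor of lymphocytes, by 3.33 (SE 0.35). Of 16 monocyte genes 5 rose and none fell (median 1.10), including Itgal, an integrin chain of leukocytes (2.25, SE 0.31), Ccr2, the chemokine receptor of inflammatory monocytes (1.76, SE 0.35), and Ly6c2 (2.61, SE 0.53). In bulb-poor libraries 3 of the 16 were called, and Ly6c2 was not (2.44, adjusted p = 0.0679). Of 14 border macrophage genes 3 rose (median 0.48, 13 positive), beside 5.09% of all genes tested. They were Ms4a7 (2.11, SE 0.35), Stab1 (0.75, SE 0.18) and Maf (0.60, SE 0.12), while Lyve1 fell. The summed level of 9 erythroid genes was 349 to 617 CPM with sedanolide and 337 to 377 CPM with both agents (exact permutation test, two-sided p = 0.0317, 0.19 after adjustment over 18 measures), and none of them was called by edgeR (median -0.68, 4 at an unadjusted p below 0.05, 0 called by DESeq2).

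Astrocyte and vascular genes rose in part. Gfap, the intermediate filament of astrocytes, stood at 69.1, 95.4, 317, 175 and 116 CPM with sedanolide and at 425, 337, 443, 481 and 458 CPM with both agents. The highest sedanolide value belonged to bulb-rich replicate 3, the groups did not overlap, and Gfap rose 2.77-fold (1.47, SE 0.34, adjusted p = 0.0123). In bulb-poor libraries the log2 change of Gfap was larger, at 2.21 (adjusted p = 7.44e-06). Of 27 reactive astrocyte genes 13 rose and none fell (median 0.84), and no call was made among 10 markers of astrocyte identity by edgeR (median -0.02, 0 at an unadjusted p below 0.05, 0 by DESeq2). Of 25 genes of endothelial identity and barrier 11 rose and none fell (median 0.46). The tight-junction gene Cldn5 rose by 0.88 (SE 0.10), the lactate transporter chaperone gene Bsg by 0.48 (SE 0.06), Slc7a5, an amino acid transporter of the barrier, by 0.59 (SE 0.11), and Itm2a by 0.67 (SE 0.14). In bulb-poor libraries 6 of the 25 were called, and Itm2a was not (0.59, adjusted p = 0.0639).

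Vwf, encoding the von Willebrand factor stored in endothelium, was at 17.6, 22.4, 18.4, 24.4 and 27.2 CPM with sedanolide and at 42.7, 46.7, 46.7, 57.1 and 42.6 CPM with both agents, a 2.14-fold rise without overlap (1.10, SE 0.22). The leukocyte adhesion gene Icam1 rose by 1.10 (SE 0.23), the protein C receptor gene Procr by 1.19 (SE 0.20) and Angpt2, an antagonist of the receptor Tie2, by 1.15 (SE 0.25). In all 6 of 19 genes of endothelial adhesion and LPS response rose and none fell (median 0.44). Selp, with 1 count over the sedanolide libraries and 5 over the co-treated ones, could hardly fall. Of 12 pericyte and smooth muscle genes 3 rose (median 0.275, 8 positive), beside 5.09% of all genes tested. They were Rgs5 (0.66, SE 0.14), Kcnj8 (0.58, SE 0.13) and Abcc9 (0.52, SE 0.12). Gpr17, a receptor of precursors that are turning into oligodendrocytes, rose by 0.64 (SE 0.16) and was the only gene called among 8 markers of oligodendrocyte precursors. It was also the only 1 of the 8 with a positive change (median -0.24), and 5.58% of all genes tested were called.

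**Figure D2:**
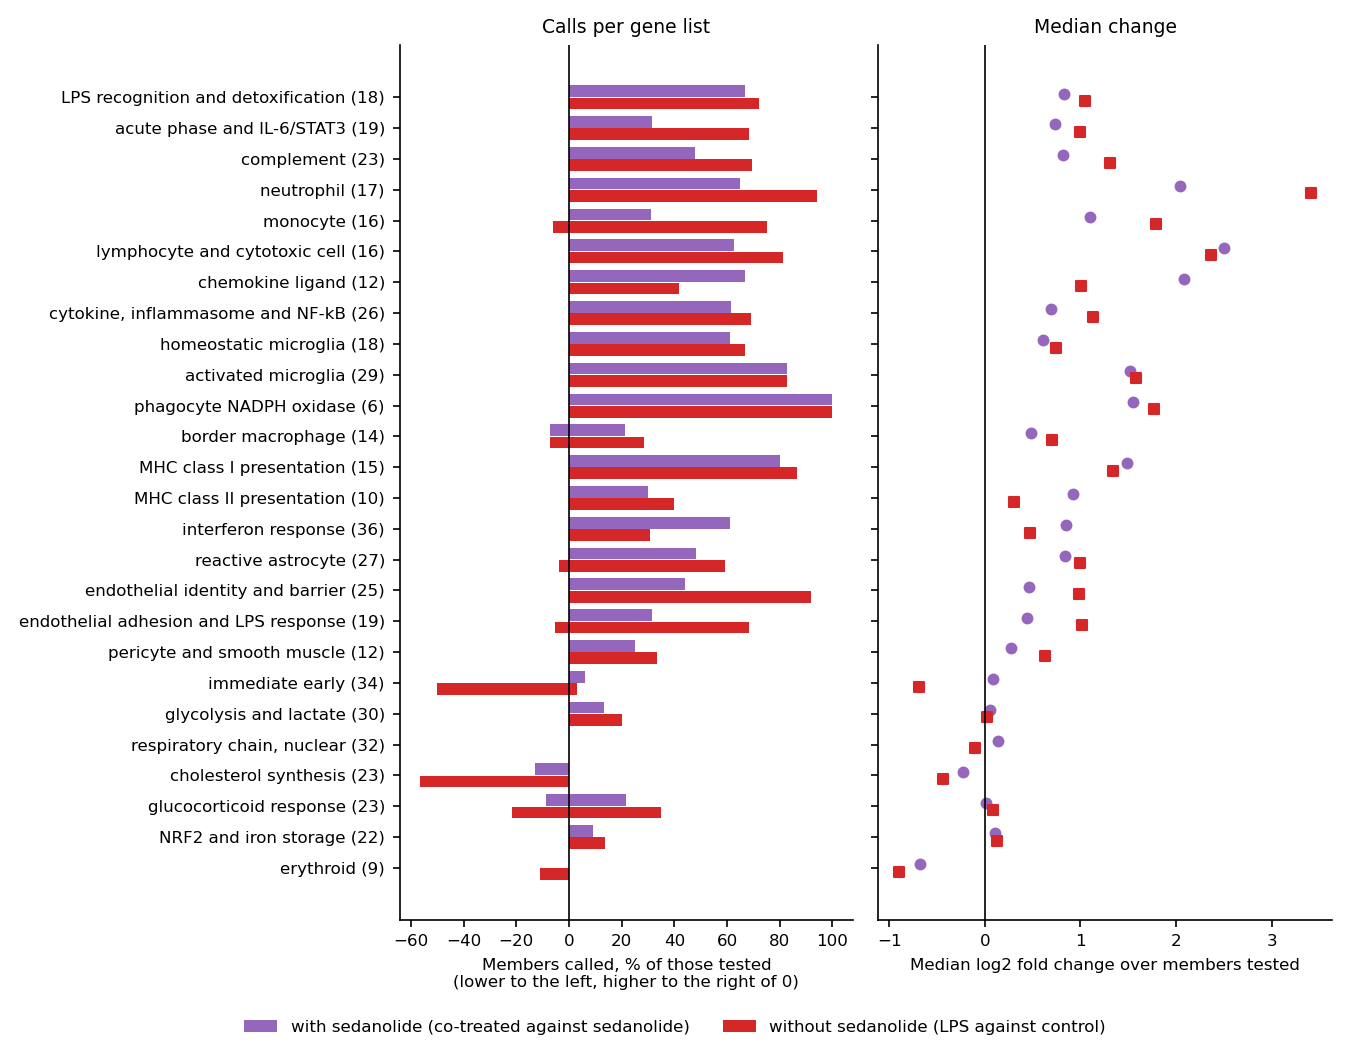
Left, share of tested members of 26 gene lists called higher (right of 0) or lower (left of 0), in percent; right, median log2 fold change of the members (circles with sedanolide, squares without). Purple is co-treated against sedanolide (n = 5 each) and red is LPS (n = 5) against control (n = 4); numbers in brackets are genes tested. Activated microglia had 24 of 29 members called in each comparison, and immediate early genes 2 higher with sedanolide against 1 higher and 17 lower without.

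Glycolysis genes changed at single steps. Hk2, a hexokinase isoform, was at 6.04, 5.82, 5.38, 6.25 and 6.16 CPM with sedanolide and at 14.1, 11.3, 13.6, 17.5 and 13.6 CPM with both agents. The spread with sedanolide was small, the groups were well apart, and Hk2 rose 2.37-fold (1.24, SE 0.13, adjusted p = 2.65e-06). The lactate transporter genes Slc16a1 and Slc16a3 rose by 1.42 (SE 0.17) and 0.73 (SE 0.18), and Hk3, the hexokinase of myeloid cells, by 1.20 (SE 0.22). The call of Slc16a3 was lost in 3 of 19 fits that each left out a library (adjusted p up to 0.0721, without co-treated replicate 3). These 4 were the only genes called of 30 (median 0.05, 21 positive), beside 5.58% of all genes tested. Pkm, which makes pyruvate, was at 0.09 (SE 0.07, adjusted p = 0.584), Ldha, which makes lactate, at 0.16 (SE 0.13, 0.625), the transcription factor gene Hif1a at 0.07 (SE 0.08, 0.776) and Pfkfb3, an activator of phosphofructokinase, at 0.23 (SE 0.08, 0.14). The glucose transporter gene Slc2a1 stood at 151, 144, 161, 167 and 161 CPM with sedanolide and at 188, 169, 194, 216 and 191 CPM with both agents. All co-treated libraries were above all sedanolide libraries, but the change of 0.29 (SE 0.13, adjusted p = 0.268) did not pass the test. None of 32 nuclear genes of the respiratory chain was called by edgeR (median 0.14, 29 positive, 6 at an unadjusted p below 0.05, 0 called by DESeq2). Of 22 genes of NRF2 targets and iron storage 2 rose, beside 5.09% of all genes tested. They were the ferritin gene Ftl1 (0.52, SE 0.08) and Nfe2l2, which encodes NRF2 (0.45, SE 0.11).

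Genes called lower were few and their changes small. Of the 86, 79 were protein-coding. Hapln2, a link protein of the matrix at nodes of Ranvier, had the largest fall of those at a mean log2 CPM of at least 1, at 5.26, 3.37, 19, 11.2 and 7.07 CPM with sedanolide and 2.79, 1.85, 3.43, 4.29 and 3.4 CPM with both agents. Its groups overlapped, its 2 highest values were those of bulb-rich sedanolide replicates 3 and 4, and Hapln2 fell by 1.54 in log2 units (SE 0.38, adjusted p = 0.0167), but was not called in bulb-poor libraries (-0.71, adjusted p = 0.134). Gjc3, a connexin gene of oligodendrocytes, fell by 0.67 (SE 0.17) with all libraries and was at -0.37 (adjusted p = 0.211) in bulb-poor ones. None of 10 oligodendrocyte markers was called by edgeR (median -0.51, and -0.12 in bulb-poor libraries; 5 at an unadjusted p below 0.05, 1 called by DESeq2), with Mbp at -0.87 (SE 0.30, adjusted p = 0.121).

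Slc25a34, a mitochondrial carrier gene, stood at 11, 13.4, 14.2, 13.7 and 15.8 CPM with sedanolide and at 8.79, 6.6, 8.93, 10.2 and 8.57 CPM with both agents. The groups did not overlap, it fell by 0.66 (SE 0.13, adjusted p = 0.00339), and the call held in bulb-poor libraries and in each fit that left out 1 library. Asxl3, a chromatin regulator gene (-0.53, SE 0.12), and the protocadherin gene Pcdhga8 (-0.53, SE 0.12) were also called in each of these 19 fits, but not in bulb-poor libraries (adjusted p = 0.104 and 0.0851). Of 18 named genes called lower only 3 were called in all of those fits and only 3, Slc25a34, Idi1 and Fam107a, in bulb-poor libraries. Fam107a, an actin-binding stress-response gene, fell by 0.50 (SE 0.15) and was called in 6 of the 19 fits. Among the others were the acyl-CoA thioesterase gene Acot11 (-0.61, SE 0.15), the adhesion gene Nectin1 (-0.60, SE 0.16), the transcription factor gene Etv4 (-0.62, SE 0.17), Kirrel2 (-0.68, SE 0.19), the citrate transporter gene Slc13a5 (-0.52, SE 0.13) and the centrosomal gene Alms1 (-0.50, SE 0.14). Lyve1, the hyaluronan receptor of lymphatic endothelium and border macrophages, was at 0.96, 1.08, 1.16, 1.05 and 1.51 CPM with sedanolide and at 0.641, 0.352, 0.376, 0.619 and 0.474 CPM with both agents (-1.21, SE 0.35, adjusted p = 0.0469). That call was kept in 6 of the 19 fits and had an adjusted p of 0.118 in bulb-poor libraries.

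Most cholesterol synthesis genes had negative changes, and few of them were called lower. Idi1, isopentenyl-diphosphate isomerase, was at 28.9, 29.3, 20.9, 22.1 and 28.8 CPM with sedanolide and at 17.7, 16.3, 17.4, 17.7 and 17.1 CPM with both agents. The co-treated values were tightly grouped below all sedanolide values, and Idi1 fell by 0.59 (SE 0.15, adjusted p = 0.0175), a call lost without sedanolide replicate 5 (0.0528). Lss, lanosterol synthase, fell by 0.29 (SE 0.07) and Dhcr7, which catalyses the last step, by 0.37 (SE 0.10), and neither was called in bulb-poor libraries (adjusted p = 0.0675 and 0.158). These were 3 of 23 genes tested, of which 2 had a positive change (median -0.23), beside 0.484% of all genes called lower. Without sedanolide 13 of the 23 were called lower after LPS (median -0.44), beside 2.44% of all genes.

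**Figure D3:**
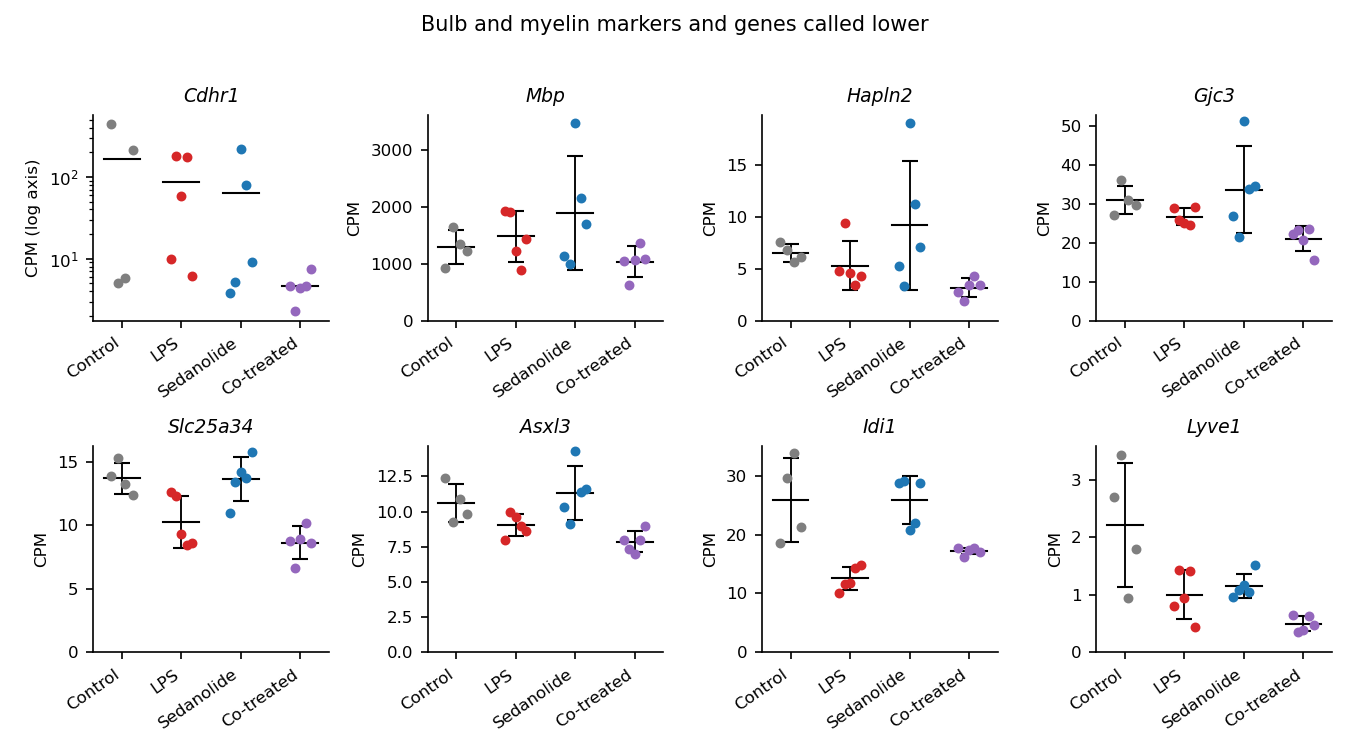
CPM per library of the bulb marker Cdhr1 (log axis, mean only), the myelin gene Mbp and 6 genes called lower (linear axes from 0, mean and SD) in the 4 groups (control n = 4, others n = 5). Sedanolide replicates 3 and 4 hold the 2 highest sedanolide values of Cdhr1 (222 and 80.4 CPM), Mbp (3480 and 2150 CPM) and Hapln2 (19 and 11.2 CPM), while for Slc25a34, Asxl3, Idi1 and Lyve1 all co-treated libraries lie below all sedanolide libraries.

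The same LPS contrast without sedanolide called 1938 genes (10.9%), 1504 higher (8.47%) and 434 lower (2.44%). In bulb-poor libraries 848 genes were called without sedanolide (722 higher and 126 lower), from 2 controls and 2 LPS libraries. With sedanolide 871 were called (823 higher and 48 lower), from 3 sedanolide and 5 co-treated libraries. Because the numbers of libraries differ, these counts do not measure the relative size of the LPS responses. The 2 comparisons share no library, only the model's estimate of the spread. In both, 680 genes were called higher, which is 75.2% of those called higher with sedanolide and 45.2% of those without, and 12 genes were called lower in both, 14% and 2.76% of the respective lists. In bulb-poor libraries 513 genes were called higher in both, 62.3% of those with and 71.1% of those without sedanolide, and 5 lower in both, 10.4% and 3.97%. Another 4 genes were called higher with sedanolide and lower without it, and 5 the reverse. The difference between the LPS changes was called for 104 genes (0.586%), 38 with a higher (0.214%) and 66 with a lower (0.372%) change in the presence of sedanolide, of which 8 were among the 680. Of the 104, 34 had been called lower and 64 higher after LPS without sedanolide, and 22 were called with sedanolide. Bulb-poor libraries gave 20 calls, 17 higher and 3 lower, and upper quartile factors 49 higher and 39 lower. The count ranged from 33 without control replicate 5 to 242 without control replicate 2, and it moved by over 1.5 times on leaving out any 1 of 15 libraries, that is all but LPS replicates 4 and 5 and sedanolide replicates 1 and 2.

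Immediate early genes, whose transcription follows neuronal activity within minutes, held 10 of the 38 genes with a higher change. Fos stood at 41.1, 43.7, 44.5, 44.6 and 50.6 CPM with sedanolide and at 57.9, 53.6, 64.4, 57.1 and 71.6 CPM with both agents, against 75 to 134 CPM in controls and 23.2 to 54 CPM with LPS alone. Sedanolide libraries lay below all controls, and co-treated libraries lay between them. The change with sedanolide, 0.44 (SE 0.19, adjusted p = 0.248), did not pass the test with all libraries, but it was called in bulb-poor ones (0.45, adjusted p = 0.0302). Fos fell by 1.68 (SE 0.20) without sedanolide, and the difference between the changes with all libraries was 2.12 (SE 0.28, adjusted p = 0.00105). Egr2, a zinc-finger transcription factor, was at 20.4, 19.8, 15.6, 19.2 and 20.5 CPM with sedanolide and at 26, 29.3, 26.6, 24.2 and 22.6 CPM with both agents. It rose by 0.43 (SE 0.11, adjusted p = 0.0209), a call lost in 4 of the 19 fits (up to 0.071, without co-treated replicate 2), and fell by 1.47 (SE 0.12) without sedanolide, a difference of 1.90 (SE 0.16, adjusted p = 5.48e-06). Junb, a partner of Fos, rose by 0.53 (SE 0.13, adjusted p = 0.0164, and 0.0511 in bulb-poor libraries) and fell by 0.98 (SE 0.14) without sedanolide. Arc, whose product acts at synapses, was at 0.49 (SE 0.16, adjusted p = 0.0964) with and fell by 1.21 (SE 0.17) without sedanolide, a difference of 1.70 (SE 0.24, adjusted p = 0.00182), and the matricellular gene Ccn1 was at 0.64 (SE 0.25, adjusted p = 0.19) and fell by 1.54 (SE 0.27), a difference of 2.18 (SE 0.37). Of 34 immediate early genes 2 rose with sedanolide (median 0.09), and 1 rose and 17 fell without it (median -0.69). Among all genes tested 5.09% rose with sedanolide, and 8.47% rose and 2.44% fell without it. In bulb-poor libraries the difference was called for 8 of the 34, Fos, Egr2, Junb, Arc and Ccn1 included. Bdnf, a neurotrophin gene, was at -0.08 (SE 0.26, adjusted p = 0.942).

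**Figure D4:**
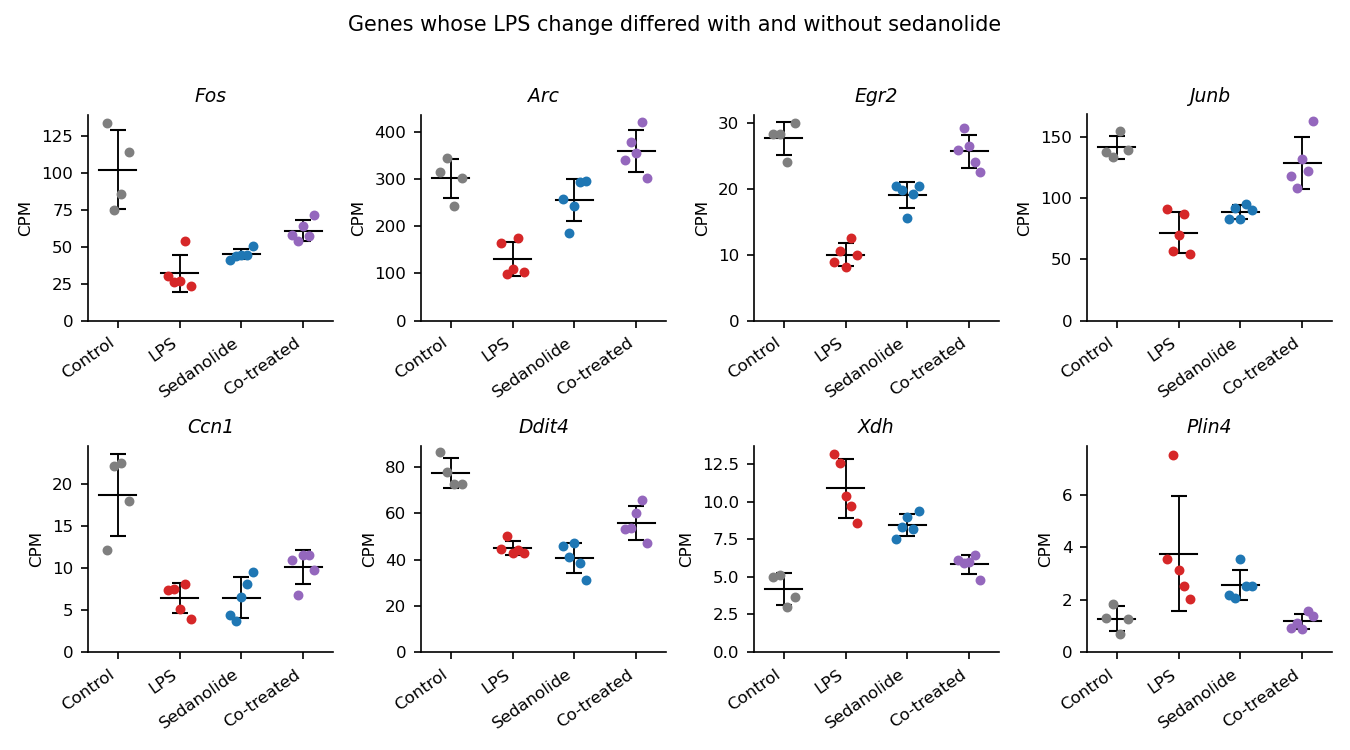
CPM per library (linear axes from 0, mean and SD) of 8 genes whose LPS change differed between mice with and without sedanolide, in control (n = 4), LPS, sedanolide and co-treated (n = 5 each) groups. For Egr2 the 5 LPS libraries lie at 8.18 to 12.6 CPM under controls at 24.1 to 30 CPM, and the 5 co-treated libraries at 22.6 to 29.3 CPM above sedanolide libraries at 15.6 to 20.5 CPM.

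Some genes of the glucocorticoid response list had the opposite pattern. Plin4, a lipid droplet protein, was at 2.19, 2.05, 3.55, 2.52 and 2.51 CPM with sedanolide and at 0.916, 1.1, 0.893, 1.55 and 1.38 CPM with both agents, against 0.687 to 1.85 CPM in controls and 2.03 to 7.53 CPM with LPS alone. It fell by 1.13 (SE 0.32, adjusted p = 0.0431) with and rose by 1.56 (SE 0.34) without sedanolide, a difference of -2.69 (SE 0.47, adjusted p = 0.0111). In bulb-poor libraries neither the fall (-0.92, adjusted p = 0.0986) nor the difference (-2.04, adjusted p = 0.262) was called. Xdh, xanthine dehydrogenase, was at 7.5, 8.31, 8.97, 8.18 and 9.4 CPM with sedanolide and at 6.09, 5.94, 5.97, 6.45 and 4.78 CPM with both agents. It fell by 0.53 (SE 0.15, adjusted p = 0.0352, and 0.148 in bulb-poor libraries), whereas it rose by 1.37 (SE 0.16) without sedanolide, a difference of -1.91 (SE 0.22) called in each of the 19 fits and in bulb-poor libraries (adjusted p = 0.023). Fkbp5, a co-chaperone of the glucocorticoid receptor, was at -0.12 (SE 0.12, adjusted p = 0.715) with and rose by 1.04 (SE 0.14) without sedanolide. The difference was -1.16 (SE 0.18, adjusted p = 0.00565), and -1.14 in bulb-poor libraries (adjusted p = 0.0894). Ddit4, an inhibitor of mTORC1 signalling, rose by 0.45 (SE 0.11) with and fell by 0.79 (SE 0.11) without sedanolide, a difference of 1.24 (SE 0.15). Of 23 genes of this list 5 rose, among them Galnt15 (1.61, SE 0.21) and Nfkbia (0.48, SE 0.12, not called in bulb-poor libraries at an adjusted p of 0.106), and 2 fell with sedanolide (median 0.01), and the difference was higher for 2 and lower for 6. In bulb-poor libraries the difference of this list was called higher for 2 genes and lower for 2.

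Among the panel genes, the difference was called for Slc2a1, at 0.29 with and 1.23 (SE 0.14) without sedanolide (difference -0.94, SE 0.19, adjusted p = 0.0351), and for Vwf, which rose by 2.56 (SE 0.25) without it (difference -1.46, SE 0.32, adjusted p = 0.0457). These calls were kept in 9 and 4 of the 19 fits and lost in bulb-poor libraries (differences -0.81 and -0.99, adjusted p = 0.503 and 0.584). Myo1g, a myosin gene of blood cells, rose by 1.60 (SE 0.25) with and 3.38 (SE 0.28) without sedanolide (difference -1.78, SE 0.38), Emilin2 was at -0.90 with and rose by 1.03 without (difference -1.92, SE 0.39), and Hif3a was at -0.71 with and rose by 1.20 without (difference -1.91, SE 0.37). None of these 3 differences was called in bulb-poor libraries (-1.34, -1.46 and -1.75, adjusted p = 0.542, 0.262 and 0.389). For the genes of the study's subject the difference was not called: C3 at 0.29 (SE 0.43, adjusted p = 0.799), C3ar1 at 0.13 (SE 0.27, 0.862) and Hk2 at -0.34 (SE 0.19, 0.409). The levels of C3 were nevertheless 10.2 to 16 CPM with LPS alone, above the 4.73 to 7.06 CPM with both agents, and 0.417 to 1.62 CPM in controls against 0.0914 to 0.503 CPM with sedanolide. Lcn2 had a difference of -1.83 (SE 0.54, adjusted p = 0.129). Among the 36 interferon-response genes, 22 rose with and 11 without sedanolide, the median of the difference was 0.30 and no member's difference was called by edgeR, and 5 of 25 endothelial identity genes had a lower change with sedanolide, none of them in bulb-poor libraries.

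**Figure D5:**
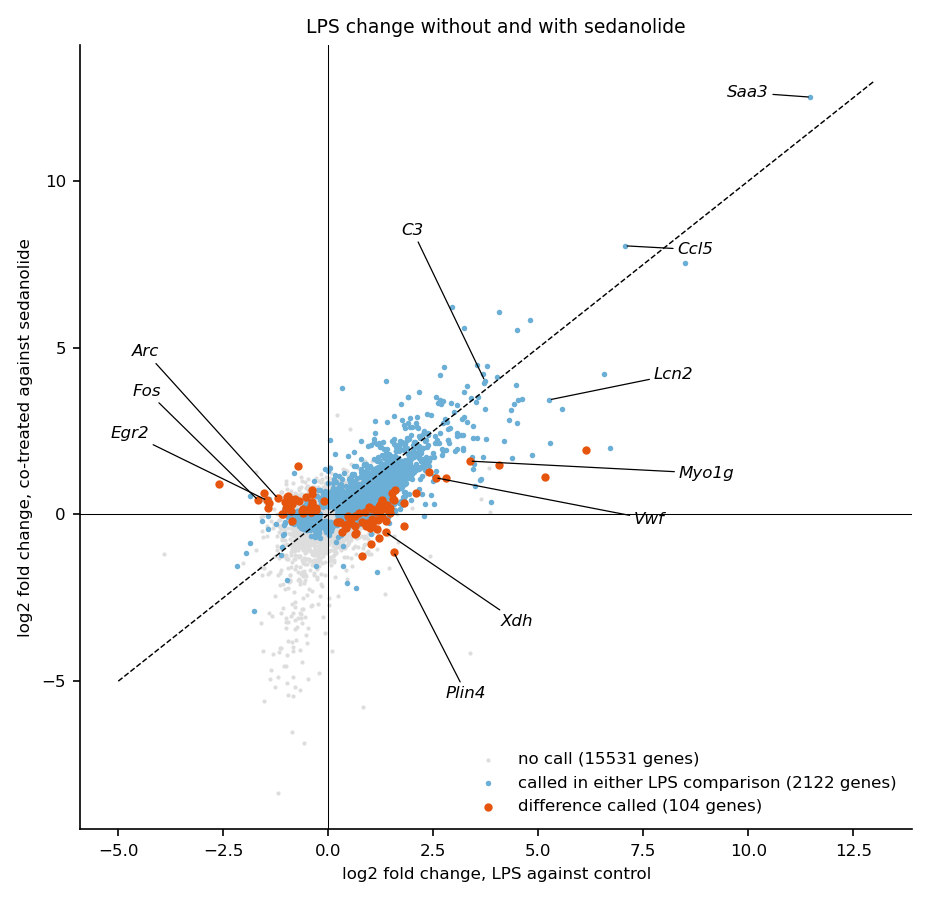
Log2 fold change of 17757 genes by LPS without sedanolide (horizontal axis, LPS n = 5 against control n = 4) and with it (vertical axis, co-treated against sedanolide, n = 5 each); the dashed line marks equal change. Blue points were called in either comparison (2122 genes) and orange points had the difference called (104 genes); Fos, Egr2 and Arc lie left of 0 and above it, while Plin4 and Xdh lie right of 0 and below it.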

How the data were processed

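Messenger RNA was captured by poly(A) selection and sequenced from 19 libraries, per the labels. The authors deposited whole-number read counts per gene for 57010 genes, not normalized. Per the submitters' processing notes the tools were fastp, HISAT2, StringTie, RSEM and DESeq2. The deposited counts carry the name of featureCounts, a counting tool that these notes do not list, so which tool counted the reads is unclear. Settings, genome build and use of strand in counting are not given in the sources used here, so reads of overlapping or antisense neighbours may be mixed.

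Counts were tested with edgeR 4.0.16 (R 4.3.3) using TMM factors, the default expression filter by group (17757 genes kept), robust quasi-likelihood fits and 1 mean per group over all 19 libraries. Tests were two-sided with Benjamini-Hochberg adjustment over all genes, and SE was derived from the log2 change and F. The fits were tested on simulated data. Alternatives were RLE and upper quartile factors, no expression filter, 1 CPM in 4 libraries, DESeq2 1.42.0, limma-voom 3.58.1 with sample weights, only the groups compared, a replicate block, bulb-poor libraries, an index of 4 bulb markers as covariate, offsets for length and GC content (17449 genes matched), and leaving out each library.

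Named genes were the 15 largest rises and 15 largest falls among protein-coding genes called at a mean log2 CPM of at least 1, up to 4 called members of each of 35 lists by smallest p, 1 member of each marker list, the 8 largest called differences between the LPS changes, and a panel of 27 genes. Comparisons, members and lists were chosen with earlier results of these data known. Totals near 22 M counts limit precision mainly for genes under 1 CPM.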

Additional observations from a re-analysis of the deposited data

Results flagged for a closer look

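In 8 of 118 gene-and-group or measure-and-group sets examined, 1 library stood apart from the others of its group, and chance alone gives about 1 in 20. In co-treated libraries these were replicate 5 for C3 (7.06 CPM) and for the share of mitochondrially encoded counts (5.5%), replicate 2 for Lcn2 (8.57 CPM) and replicate 4 for Vwf (57.1 CPM). In sedanolide libraries they were replicate 3 for Alms1 (10.4 CPM) and Egr2 (15.6 CPM), and replicate 5 for C3ar1 (4.47 CPM) and C5ar1 (2.1 CPM).

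The LPS change differed between mice with and without sedanolide, by edgeR's quasi-likelihood test of the difference itself, for 13 of 56 genes examined. Among all genes tested 0.586% were called. Of the 13, 8 had been chosen by this same test as the largest called differences, so the count is partly set by that choice. These 8 were Plin4, Xdh, Ccn1, Fos, Emilin2, Hif3a, Egr2 and Myo1g. The log2 change was higher with sedanolide for Ccn1 (2.18), Fos (2.12), Egr2 (1.90) and Arc (1.70). It was lower for Plin4 (-2.69), Emilin2 (-1.92), Xdh (-1.91), Hif3a (-1.91), Myo1g (-1.78), Vwf (-1.46), Fkbp5 (-1.16), Slc2a1 (-0.944) and Pcdhga8 (-0.86). Bulb transcripts were high in 7 libraries but in no co-treated library. In bulb-poor libraries alone, with 2 controls and 2 LPS libraries left, Fos, Egr2, Ccn1, Arc and Xdh passed the test of the difference. The others did not, but kept their sign. Their differences were -2.04 for Plin4, -1.46 for Emilin2, -1.75 for Hif3a and -1.34 for Myo1g. For Vwf, Fkbp5, Slc2a1 and Pcdhga8 they were -0.99, -1.14, -0.81 and -0.75. Whether the smaller number of libraries or the lack of bulb tissue cost these calls was not tested.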

How the results depend on the processing

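The count of 990 genes called and the 904 called higher stayed within 1.5 times under every alternative except limma-voom (3528 and 2209). The 86 called lower were less stable, at 55 with upper quartile factors, 44 with no expression filter, 172 with DESeq2, 1319 with limma-voom, 34 with the replicate block, 48 in bulb-poor libraries and 223 with length and GC offsets. The 104 calls of the difference became 447 with DESeq2, 3849 with limma-voom, 20 in bulb-poor libraries and 256 with the bulb index, and the 1938 calls of LPS against control became 4527 with limma-voom, 1114 with only the groups compared and 848 in bulb-poor libraries. The cause of these shifts was not tested. Fits that each left out 1 library gave 762 to 1247 genes called, 719 to 1107 called higher, 35 (without sedanolide replicate 4) to 140 (without co-treated replicate 5) called lower, 33 to 242 for the difference and 1308 to 2478 for LPS against control. The difference was not computed with only the groups compared, since it needs all 4. Of 131 named genes (129 with a minimum of 1 CPM in at least 4 libraries, 130 with only the groups compared) 5 changed direction, none of them called in any fit. Aqp1 went from -2.44 to 0.72 in bulb-poor libraries and 1.03 with the bulb index, Ppp1r1b from 0.15 to -0.05 with the bulb index, and Pkm from 0.094 to -0.003 with length and GC offsets. Over fits that each left out 1 library Bdnf went from -0.08 to between -0.229 and 0.03 (positive without sedanolide replicates 1 and 2), and Camk2a from -0.05 to between -0.129 and 0.043 (positive without sedanolide replicate 5). In bulb-poor libraries 19 named genes lost a call and 1, Fos, gained a call. DESeq2 left 36143 genes without an adjusted p.

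Same-numbered co-treated and sedanolide libraries showed no clear pairing. Their deviations correlated at 0.035 to 0.269 and those of other pairs at -0.33 to 0.449, and 0 of 5 correlated best with their own number. With only 5 pairs this cannot settle whether equal numbers shared a batch. With the replicate number as a block 795 genes were called, 761 higher and 34 lower, and 32 for the difference.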
